A study of Mus musculus with 6 samples.

Results

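The collagen chain genes were described in injured mouse carotid arteries with and without the transcription factor IRF4. Members were all genes whose symbol consists of Col, a number, a and a number, measured by a probe set annotated to that symbol alone. On the Affymetrix mouse arrays 82 probe sets met this rule and stood for 42 genes out of 18194. Where a gene had several, the brightest probe set by its 6-array average stood for it. The other 2 collagen genes of the RefSeq table, Col6a6 and Col28a1, had no such probe set. The study compared wild-type mice (WT, 3 arrays) with mice lacking IRF4 in the whole body (IRF4 KO, 3 arrays). Every mouse had a wire-injury operation, and the carotid arteries were taken 14 days later, so no uninjured artery enters the comparison. One array carried biotin-labelled cRNA from 400 ng of total RNA of 3 to 5 pooled vessels, and the arrays of each genotype are labelled as biological replicates. The labels used here state no strain, age or sex and leave the deleted stretch of Irf4 unnamed.

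Collagens are triple helices of 3 chains, each built from long runs of the repeat glycine-X-Y. Fibrillar collagens (types I, II, III, V, XI, XXIV and XXVII) pack into the fibres that bear load, and FACIT collagens sit on the surface of those fibres. Type IV chains form the sheet of the basement membrane, which surrounds each smooth muscle cell of the arterial media and underlies the endothelium. In an injured artery, smooth muscle cells and adventitial fibroblasts lay down types I and III in the neointima and adventitia, and type VIII is known as a collagen of migrating smooth muscle cells. Types II, IX, X and XI are the collagens of cartilage.

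Values are log2 intensities after RMA, a procedure that corrects background, normalizes between arrays and joins the probes of a set. One unit is therefore a doubling, and changes of dim genes are understated. Intensities of different probe sets are not on a common scale of abundance, so differences were read within each gene across arrays. A gene is called bright here when its mean lay above the median of all gene means (4.89), which held for 28 of the 42 collagen genes. This sorts genes by intensity and not by abundance. The mean takes in all 6 arrays, and some genes were bright only through WT 3 and IRF4 KO 1, described below. Over the other 4 arrays Col2a1 averaged 4.31, Col9a1 4.88, Col9a3 4.57, Col11a1 3.20 and Col12a1 4.32. Differences between genotypes are IRF4 KO minus WT, with the moderated standard error (SE) of limma.

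WT 3 and IRF4 KO 1 differed from the remaining 4 arrays in their technical controls. The poly-A spike-in controls, bacterial RNAs mixed in ahead of labelling, averaged 4.93 and 5.14 on these arrays and 7.35 to 9.26 on the others. Each genotype thus held 1 array with low controls. The targeted gene did not check the labels: 1 Irf4 probe set read 3.64 ± 0.26 in WT against 3.57 ± 0.26 in IRF4 KO and the other 3.28 ± 0.30 against 3.19 ± 0.15 (SD, n = 3 arrays). All 8 measured smooth muscle, all 6 endothelial and all 6 adventitial fibroblast markers were bright, and so were 7 of 8 macrophage and 3 of 11 chondrocyte markers. Of the osteoblast, skeletal muscle, Schwann cell and adipocyte markers, 0 of 4, 2 of 5, 1 of 2 and 0 of 3 were bright. The chondrocyte list averaged 5.73 and 5.88 on WT 3 and IRF4 KO 1 and 3.33 to 3.75 on the others. The macrophage list averaged 8.05 and 9.28 against 4.54 to 5.51.

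**Figure D1:**
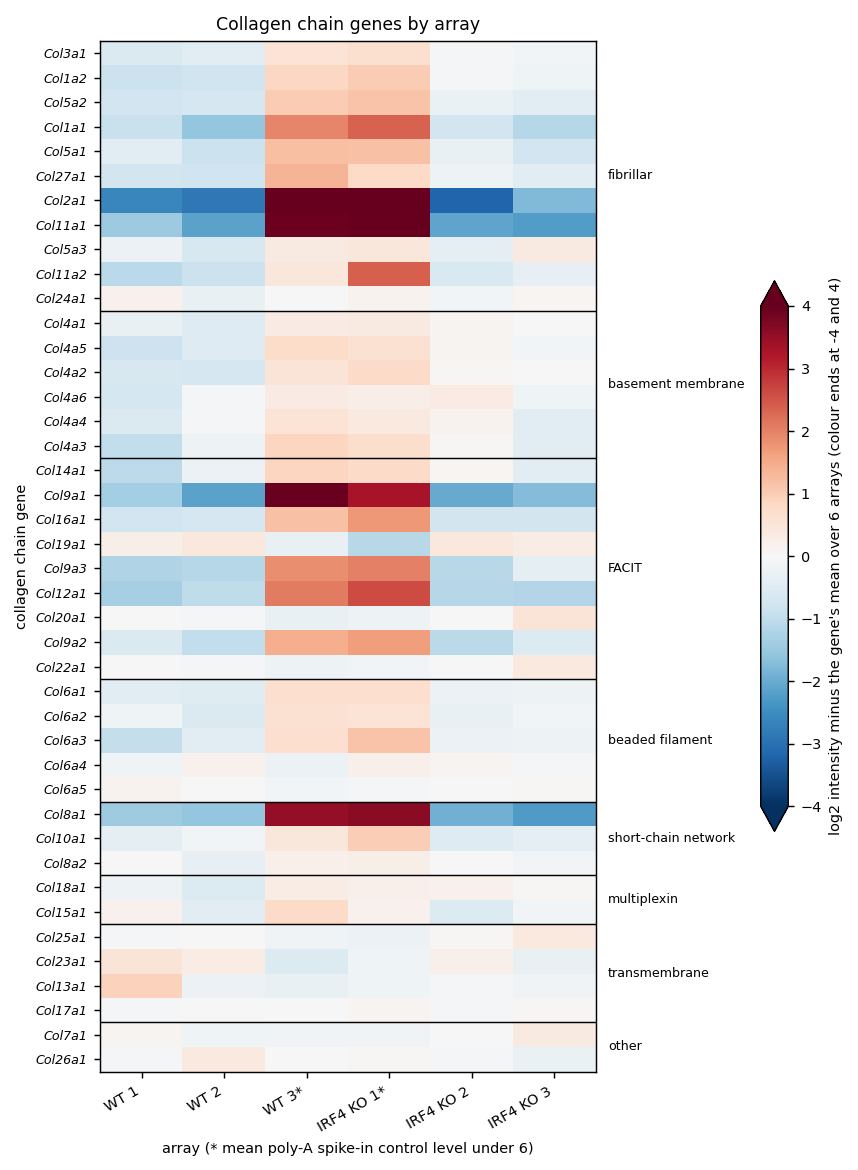
Heat map of the 42 collagen chain genes (rows, by class) on the 6 arrays (columns), coloured by log2 intensity minus the gene's mean over the 6 arrays. WT 3 and IRF4 KO 1, marked with an asterisk, are red for most fibrillar, basement membrane, FACIT and beaded filament genes, while the transmembrane genes are mostly pale.

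The widest differences among the collagen genes lay between arrays and not between genotypes. In 29 of the 42 genes (69%) both WT 3 and IRF4 KO 1 read above all of the other 4 arrays, against 17.4% of all genes. Both read below the other 4 in 5 collagen genes (11.9%), against 19.8% of all genes. The mean of the 2 arrays was at least 4-fold that of the others in 10 collagen genes (23.8%), against 0.978% of all genes. Over all collagen genes the median of this difference was 0.93, compared with -0.031 over all genes. Arrays were grouped by the spike-in controls, but WT 3 and IRF4 KO 1 were already known from earlier results of these data to stand apart. The arrays carry no label for this split, so no test was made of it. In pooled tissue, fewer cells of a type and less RNA per cell cannot be told apart.

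Among the fibrillar genes, the chains of types I and III, the main collagens of the arterial wall, were bright on every array. Col1a1 read 8.45, 7.80 and 11.30 in WT 1 to 3 and 11.70, 8.57 and 8.20 in IRF4 KO 1 to 3. Its partner Col1a2 read 11.75, 11.80 and 13.42 in WT and 13.63, 12.56 and 12.44 in IRF4 KO. Col3a1, the only chain of type III, read 12.07, 12.19 and 13.21 in WT and 13.29, 12.62 and 12.55 in IRF4 KO. In each of these the array with low spike-in controls was the highest of its genotype, by more for Col1a1 (3.24 on average) than for Col1a2 (1.39) or Col3a1 (0.89). The genotypes overlapped in all 3 genes. The difference was 0.31 for Col1a1 (SE 1.09), 0.55 for Col1a2 (SE 0.49) and 0.33 for Col3a1 (SE 0.34).

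Of the type V chains, which nucleate type I fibres, Col5a1 and Col5a2 followed the same arrays. Col5a2 read 10.37, 10.47 and 12.16 in WT and 12.27, 10.85 and 10.66 in IRF4 KO. Col5a1 read 8.87, 8.44 and 10.51 in WT and 10.47, 9.01 and 8.55 in IRF4 KO. The third chain, Col5a3, was dim, at 3.69, 3.28 and 4.28 in WT and 4.36, 3.56 and 4.28 in IRF4 KO, so IRF4 KO 3 was level with WT 3. Its other probe set was lower on WT 3 and IRF4 KO 1 than on the rest, with a difference of -0.42. The genotype differences were 0.26 for Col5a2 (SE 0.56), 0.071 for Col5a1 (SE 0.62) and 0.32 for Col5a3 (SE 0.32). Col24a1 was dim on every array, between 1.62 and 2.11.

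The cartilage collagens carried the largest swings of the family. Col2a1, the fibre-forming chain of cartilage, read 4.31, 4.04 and 12.07 in WT 1 to 3 and 12.16, 3.75 and 5.15 in IRF4 KO 1 to 3. WT 3 and IRF4 KO 1 averaged 7.80 log2 units above the other arrays, where the gene was dim, and differed from each other by 0.092. Col11a1, which co-assembles with type II, read 3.72, 3.05 and 9.10 in WT and 9.19, 3.08 and 2.95 in IRF4 KO. Col9a1, a FACIT chain that coats type II fibres, read 5.31, 4.55 and 10.63 in WT and 9.999, 4.68 and 4.96 in IRF4 KO. On the other 4 arrays Col2a1 reached at most 5.15, Col9a1 5.31 and Col11a1 3.72. All 7 cartilage collagens were highest on WT 3 and IRF4 KO 1, with a median difference of 2.90 from the rest.

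Not every cartilage chain was bright where Col2a1 was. Col10a1, the collagen of hypertrophic cartilage, read 3.19, 3.47 and 4.05 in WT and 4.55, 3.06 and 3.19 in IRF4 KO and so remained below the median gene level on all 6 arrays. Col11a2 was the member on which the pair with low controls differed most between genotypes, with 2.73, 2.94 and 4.26 in WT and 6.19, 3.20 and 3.48 in IRF4 KO. Its difference over the 6 arrays, 0.98 (SE 0.76), was the largest of the 42 genes and had an unadjusted p of 0.233. Col9a2 and Col9a3, the other chains of type IX, averaged 2.36 and 2.90 higher on WT 3 and IRF4 KO 1 than on the other arrays. On the further Col9a3 probe sets this difference was 0.13 and 3.90.

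**Figure D2:**
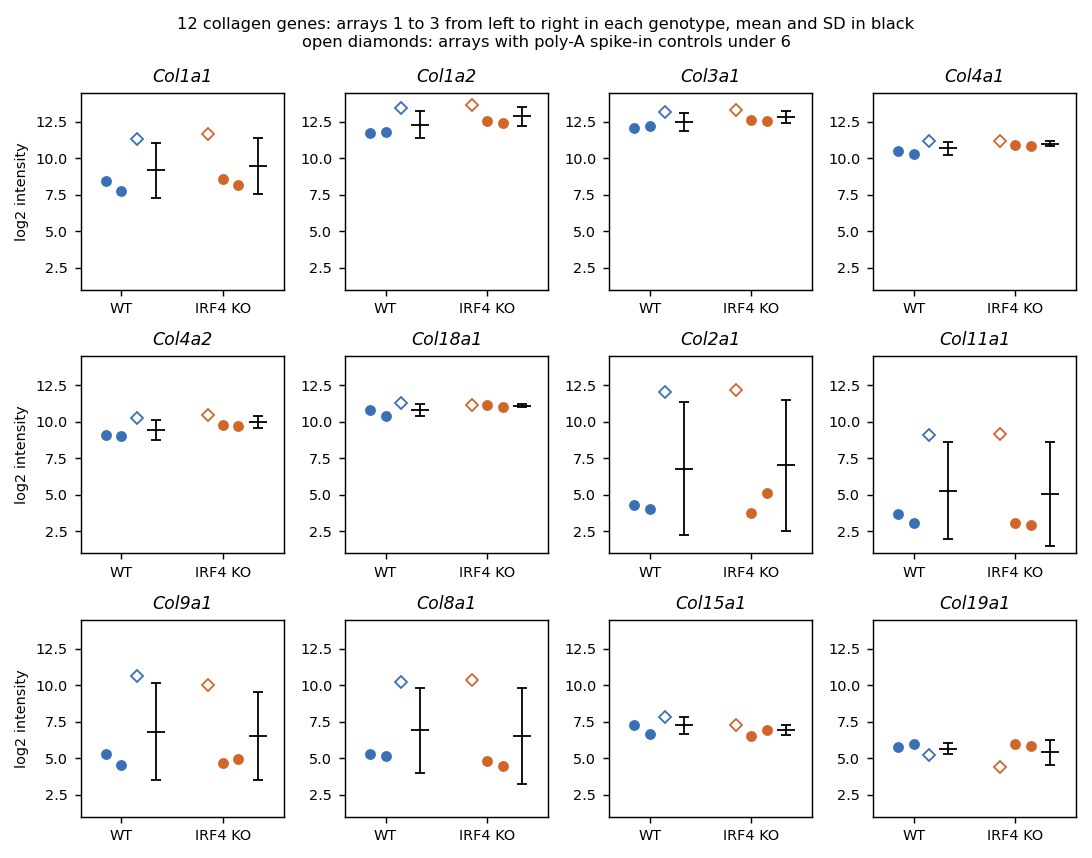
Log2 intensity of 12 collagen genes on each array (points, arrays 1 to 3 from left to right within a genotype), with the mean and SD of 3 arrays in black and open diamonds for WT 3 and IRF4 KO 1. Col2a1, Col11a1, Col9a1 and Col8a1 show 1 high array in each genotype, whereas Col4a1 and Col18a1 vary by less than 1 unit over the 6 arrays.

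Col8a1, a short-chain collagen of vessel walls, had a swing between arrays close in size to those of the cartilage chains Col9a1 and Col11a1, although it is not a cartilage collagen. It read 5.31, 5.19 and 10.24 in WT and 10.35, 4.82 and 4.46 in IRF4 KO. That is a log2 difference of 5.35 between the 2 arrays and the others, which was 4.16 and 0.92 on the gene's other probe sets. For Col9a1 the difference was 5.44 on the brightest probe set and 1.39 on the other. Within the other 4 arrays both IRF4 KO values lay below both WT values, by 0.61, and the same order held on a further probe set of the gene (5.51 and 5.41 in WT, 4.71 and 4.72 in IRF4 KO). A dimmer probe set had the opposite order (2.53 and 2.78 against 2.80 and 3.04). The companion chain Col8a2 was dim, between 2.89 and 3.46.

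FACIT chains outside cartilage split into those that followed the 2 arrays and those that did not. Col14a1, a chain of dense connective tissue, read 7.66, 8.47 and 9.56 in WT and 9.46, 8.77 and 8.24 in IRF4 KO. Col16a1 read 5.53, 5.63 and 7.47 in WT and 8.04, 5.55 and 5.57 in IRF4 KO. Col12a1, known from tendon and other tissue under strain, read 4.16, 4.46 and 7.55 in WT and 8.09, 4.33 and 4.33 in IRF4 KO. The other 3 Col12a1 probe sets did not share that swing, with differences of -0.31 to 0.35 between the 2 arrays and the rest against 3.50 here. Col19a1 went the other way, at 5.77, 5.97 and 5.25 in WT and 4.43, 5.97 and 5.85 in IRF4 KO, and Col20a1 and Col22a1 were also lowest on WT 3 and IRF4 KO 1.

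The basement membrane chains varied less than the fibrillar and FACIT chains, with median SDs within a genotype of 0.54, 0.99 and 1.27. Over all genes this median was 0.287. All 6 had a higher mean in IRF4 KO, as did 49.7% of all genes. Col4a1 read 10.54, 10.33 and 11.19 in WT and 11.21, 10.94 and 10.88 in IRF4 KO. Col4a2, which joins Col4a1 in the common type IV network, read 9.10, 9.04 and 10.24 in WT and 10.50, 9.77 and 9.72 in IRF4 KO. Col4a5, a chain of the network that includes smooth muscle basement membranes, read 9.31, 9.62 and 10.86 in WT and 10.73, 10.22 and 10.01 in IRF4 KO. In all 3, WT 1 and WT 2 were the lowest arrays, IRF4 KO 2 and 3 intermediate, and WT 3 and IRF4 KO 1 the highest. The genotypes overlapped because of WT 3. The difference was 0.32 for Col4a1 (SE 0.26), 0.53 for Col4a2 (SE 0.36) and 0.39 for Col4a5 (SE 0.40). Col4a3, Col4a4 and Col4a6 differed by 0.20, 0.063 and 0.28. The median over the 6 genes was 0.30 and stayed positive under array median subtraction (0.31) and quantile normalization (0.31). When the probe sets of each gene were averaged, 5 of 6 were higher, since both other Col4a4 probe sets were lower in IRF4 KO (-0.16 and -0.015). Without WT 1 the median was 0.037 and 3 of 6 genes were higher, and without IRF4 KO 1 it was 0.20 with 4 of 6. Between IRF4 KO 1 and WT 3 alone, 2 of 6 were higher in IRF4 KO, against 50.2% of all genes, and the median of the 6 was -0.10.

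Type VI chains, which form beaded filaments around cells, were bright for Col6a1, Col6a2 and Col6a3 and dim for Col6a4 and Col6a5. Col6a1 read 10.20, 10.12 and 11.28 in WT and 11.27, 10.39 and 10.40 in IRF4 KO. Col6a2 read 10.36, 9.94 and 11.13 in WT and 11.08, 10.24 and 10.43 in IRF4 KO. Col6a3 read 9.41, 9.89 and 11.02 in WT and 11.49, 10.11 and 10.14 in IRF4 KO. Col6a1 and Col6a2 were both highest on WT 3 and IRF4 KO 1 and lowest on WT 2. Col6a3 differed between genotypes by 0.48 (SE 0.49), with 0.47 between IRF4 KO 1 and WT 3 and 0.48 among the other 4 arrays.

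The multiplexins, basement membrane zone collagens that carry sugar side chains, spanned 0.85 (Col18a1) and 1.29 (Col15a1) log2 units over the 6 arrays. Col18a1, the source of endostatin, read 10.78, 10.42 and 11.28 in WT and 11.18, 11.16 and 11.005 in IRF4 KO. Col15a1 read 7.26, 6.66 and 7.86 in WT and 7.27, 6.56 and 6.97 in IRF4 KO. Their differences had opposite signs, 0.29 for Col18a1 (SE 0.24) and -0.32 for Col15a1 (SE 0.33), and neither exceeded the spread between arrays. Transmembrane and remaining collagens mostly read low. Col25a1 lay between 5.20 and 5.83, Col23a1 between 3.44 and 4.51, Col13a1 between 3.38 and 4.60, Col7a1, the anchoring fibril chain of skin, between 4.61 and 5.14, and Col26a1 between 2.07 and 2.74.

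No collagen gene differed between IRF4 KO and WT beyond the spread between arrays. With limma over all 18194 genes, 0 of 42 had an adjusted p under 0.05, as did 0% of all genes, and every member had an adjusted p of 0.999. At an unadjusted p under 0.05 there were also 0 members, against 1.49% of all genes (0.407% higher and 1.08% lower in IRF4 KO), and the smallest was 0.181 for Col4a2. In no member were the 3 IRF4 KO arrays all above the 3 WT arrays (2.37% of all genes) or all below (3.31%). The mean was higher in IRF4 KO in 33 genes (78.6%) and lower in 9, while 49.7% of all genes were higher. The median difference was 0.16, compared with -0.0015 over all genes. It moved to -0.075 without IRF4 KO 1, -0.021 without WT 2, 0.013 without WT 1 and 0.58 without WT 3, and the count of higher genes to 19, 19, 21 and 36. Arrays of a genotype scattered more for collagens than for genes at large, with median SDs of 0.575 and 0.287. For Col2a1 the 95% interval of the difference ran from -5.71 to 6.15, for Col1a1 from -2.19 to 2.81 and for Col4a1 from -0.26 to 0.91. These intervals, from 3 arrays per genotype, reach a doubling or more in IRF4 KO in 22 of the 42 genes. Over all genes they do so in 1208 of 18194.

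**Figure D3:**
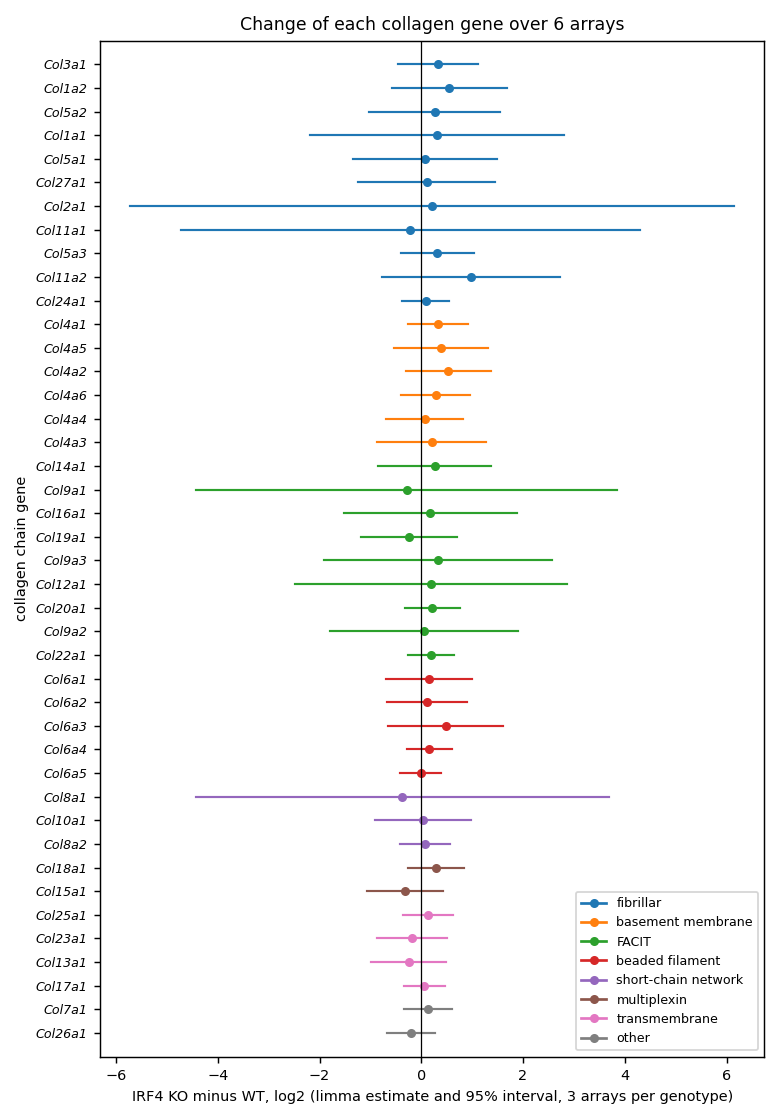
Difference between genotypes (IRF4 KO minus WT, log2) for each collagen gene (points) with limma's 95% interval (lines) over 3 arrays per genotype, coloured by class. All 42 intervals include 0, and they are widest for Col2a1, Col11a1, Col9a1 and Col8a1.

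Because each genotype held 1 array with low spike-in controls, the comparison was also read within arrays of like controls. Among WT 1, WT 2, IRF4 KO 2 and IRF4 KO 3, both IRF4 KO values lay above both WT values in 15 of the 42 genes (35.7%, against 14.1% of all genes) and below in 4 (9.52%, against 15.7%). The 15 included Col1a2, Col3a1 and Col5a2 of the interstitial fibres, Col4a1, Col4a2 and Col4a5 of the basement membrane, Col6a1 and Col6a3, and Col18a1. The rest were Col27a1, the cartilage chains Col9a3 and Col11a2, and Col20a1, Col22a1 and Col25a1. Col1a2 differed by 0.72 on these 4 arrays, or 1.65-fold, Col4a2 by 0.67, Col4a5 by 0.65, Col18a1 by 0.48 and Col3a1 by 0.46. Between IRF4 KO 1 and WT 3 the same genes differed by 0.21, 0.26, -0.13, -0.092 and 0.074. The mean over the 4 arrays was higher in IRF4 KO in 31 genes, against 50.1% of all genes, and IRF4 KO 1 exceeded WT 3 in 27, against 50.2%. A higher value in IRF4 KO in both sets was found in 18 genes (42.9%, against 26.3% of all genes), and a lower one in Col9a1 and Col15a1 alone (4.76%, against 25.8%).

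None of these differences passed a test over all genes. In the limma fit on the 4 arrays 0 collagen genes had an adjusted p under 0.05, against 0.0275% of all genes, and 4 had an unadjusted p under 0.05, against 3.87%. Of these, Col1a2 (unadjusted p = 0.0147), Col4a2 (0.0215) and Col4a5 (0.0299) were higher and Col8a1 (0.039) lower, against 1.03% and 2.84% of all genes, each with an adjusted p of 0.999. With the control level as a block over the 6 arrays, limma gave 4 collagen genes higher at an unadjusted p under 0.05, against 1.29% of all genes, and 0 lower, against 2.4%. They were Col11a2 (unadjusted p = 0.00465), Col1a2 (0.0161), Col4a2 (0.0161) and Col6a3 (0.034), with a smallest limma adjusted p of 0.995. The 2 readings share arrays, so Col1a2 and Col4a2 appearing in both is no further evidence. The smooth muscle marker list averaged 10.05 and 10.23 in WT 1 and 2 and 10.60 and 10.49 in IRF4 KO 2 and 3. Its genes did not all move together, as 5 of 8 were higher in IRF4 KO there and differences ran from -0.39 to 1.09. The adventitial fibroblast list averaged 7.04 and 7.11 against 6.93 and 6.91, and the poly-A controls 8.46 and 9.26 against 8.37 and 7.35. The macrophage list averaged 5.51 and 4.88 in WT 1 and 2 and 4.54 and 4.74 in IRF4 KO 2 and 3, and 4 of its 8 genes were lower in IRF4 KO without overlap, against 15.7% of all genes. In the limma fit on these arrays 3 macrophage genes had an unadjusted p under 0.05, with the smallest for Ctss (0.00034, adjusted p = 0.297). Their part in the collagen values was not tested.

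**Figure D4:**
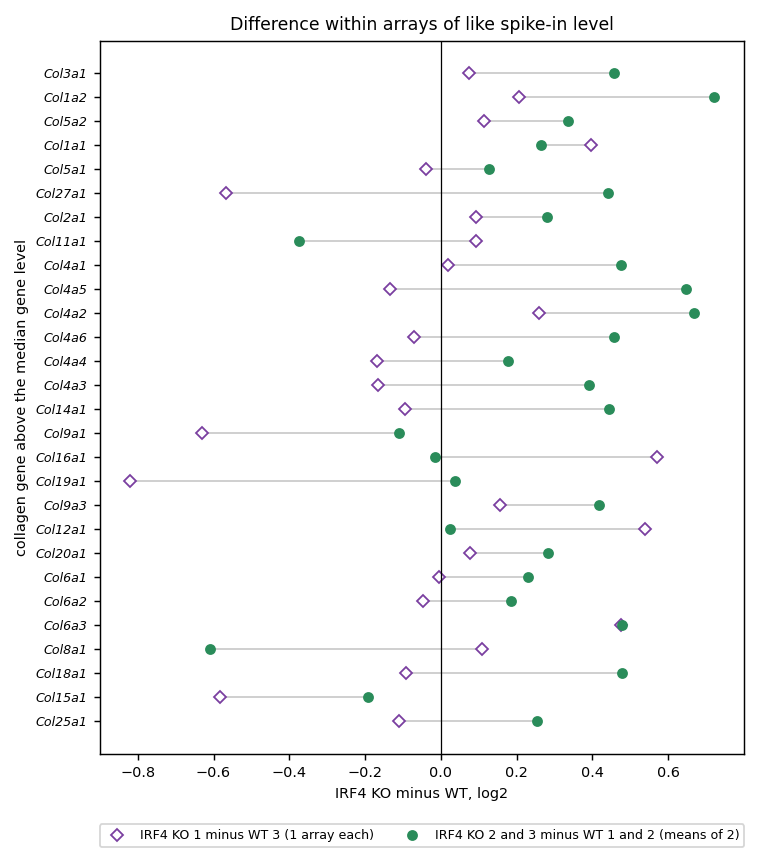
IRF4 KO minus WT (log2) for the 28 bright collagen genes, between IRF4 KO 1 and WT 3 (open diamonds, 1 array each) and between the means of IRF4 KO 2 and 3 and of WT 1 and 2 (green points). Green points lie right of 0 for all 6 basement membrane genes, by 0.18 to 0.67, while the diamonds of those genes lie between -0.17 and 0.26. On the 4 arrays of the green points, 50.1% of all genes had a higher mean in IRF4 KO.

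A gene read by several probe sets allowed a check on the choice of the brightest. Of the 27 such genes, 15 had the same sign of the genotype difference on all probe sets and 12 did not. Signs matched for Col1a1, Col1a2, Col3a1, Col5a1, Col5a2, Col4a1, Col4a5, Col4a6 and Col18a1, and differed for Col4a4, Col9a1, Col9a3, Col8a1, Col12a1, Col14a1 and Col19a1 among others. Sizes also varied, as Col5a1 differed by 0.071 on its brightest probe set and by 0.51 and 1.26 on the others. Of the 82 collagen probe sets, 1 had a limma unadjusted p under 0.05, where 1.49% of all genes did on their brightest probe set. It was the dimmer one of Col4a3, which read 4.42, 4.35 and 4.80 in WT and 5.09, 4.84 and 5.02 in IRF4 KO (limma adjusted p = 0.9996 over all probe sets). The brighter Col4a3 probe set read 4.57, 5.35 and 6.41 in WT and 6.25, 5.60 and 5.10 in IRF4 KO, so the genotypes overlapped there.

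Several collagen genes are direct neighbours in the RefSeq annotation of GRCm38.p6, with no other protein-coding gene starting between them. Of the 7 such pairs, Col4a1 with Col4a2 (chromosome 8), Col3a1 with Col5a2 (chromosome 1) and Col4a3 with Col4a4 (chromosome 1) ranked the 6 arrays in the same order within each pair. The other 4 pairs did not. Col9a1 was 5.44 higher on WT 3 and IRF4 KO 1 than on the others, while the adjacent Col19a1 on chromosome 1 was lower there, by -1.05. On the X chromosome, Col4a5 differed by 1.005 between these arrays and the rest and Col4a6 by 0.46.

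Stretches upstream of the start are shown for the members that carried these patterns. They are Col1a2, Col3a1 and Col4a5, higher in IRF4 KO among the 4 arrays with higher controls, and Col11a1 and Col8a1, which separated WT 3 and IRF4 KO 1 from the rest. The RefSeq promoter windows (build GRCm38.p6, 250 bases before to 50 after the start) held 36 windows of 33 members. Letters searched on both strands were CCAAT, the box bound by NF-Y, the TATA box TATAAA and a core of SOX sites, which reads ACAAAG. They also included the composite sites at which IRF factors bind, namely GAAA spaced by 2 bases from a second GAAA, or GGAA spaced by 2 bases from GAAA. Each stretch is printed 5′ to 3′ on the strand of the gene and ends before the annotated gene, with matches in capitals (a match on the opposite strand shows as ATTGG for CCAAT).
Col1a2, chr6:4505368-4505617, + strand: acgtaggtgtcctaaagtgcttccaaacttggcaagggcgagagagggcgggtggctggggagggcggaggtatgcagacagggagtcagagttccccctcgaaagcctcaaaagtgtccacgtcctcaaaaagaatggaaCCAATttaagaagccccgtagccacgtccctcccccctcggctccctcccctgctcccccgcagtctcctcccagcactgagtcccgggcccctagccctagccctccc
Col3a1, chr1:45311288-45311537, + strand: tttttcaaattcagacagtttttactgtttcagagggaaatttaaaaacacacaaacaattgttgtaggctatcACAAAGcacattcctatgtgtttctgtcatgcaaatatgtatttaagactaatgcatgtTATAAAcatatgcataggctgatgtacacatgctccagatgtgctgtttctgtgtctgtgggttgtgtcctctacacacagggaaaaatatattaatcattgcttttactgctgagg
Col4a5, chrX:141475169-141475369, + strand: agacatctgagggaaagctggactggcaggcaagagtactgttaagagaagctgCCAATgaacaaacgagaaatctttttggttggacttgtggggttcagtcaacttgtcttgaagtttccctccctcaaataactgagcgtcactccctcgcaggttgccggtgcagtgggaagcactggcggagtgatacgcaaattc
Col11a1, chr3:114030290-114030478, + strand: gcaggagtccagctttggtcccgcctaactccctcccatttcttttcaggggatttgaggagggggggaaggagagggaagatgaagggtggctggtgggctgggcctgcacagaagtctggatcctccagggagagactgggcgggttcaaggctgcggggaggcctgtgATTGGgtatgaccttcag
Col8a1, chr16:57754738-57754987, - strand: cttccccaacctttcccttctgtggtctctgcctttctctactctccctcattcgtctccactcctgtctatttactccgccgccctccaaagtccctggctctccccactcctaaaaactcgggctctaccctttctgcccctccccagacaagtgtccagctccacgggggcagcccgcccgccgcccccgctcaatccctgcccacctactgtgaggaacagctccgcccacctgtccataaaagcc

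CCAAT occurred in 13 of the 36 collagen windows, where 37.4% of all 32851 windows hold it, and the 13 included Col1a2, Col4a1, Col4a2, Col4a5, Col11a1 and Col18a1. TATAAA occurred in 5 of the 36 (13.6% of all windows) and ACAAAG in 4 (18.7%). The Col3a1 stretch holds both and the Col8a1 stretch none of the 5. Both IRF composites were found in 0 of the 36 windows, the GAAA pair against 3.44% and GGAA with GAAA against 2.72% of all windows, which says only that these letters are not in these windows.

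Enzymes and chaperones that build collagen were read beside the chains. In the limma fit 0% of all genes passed, 1.49% had an unadjusted p under 0.05 and 49.7% were higher in IRF4 KO, which is the background for this and the following lists. Of 25 measured assembly genes 0 passed, 1 had an unadjusted p under 0.05, and 19 were higher in IRF4 KO with a median of 0.21. In 3 of the 25, Pcolce2, P4hb and P4ha2, all IRF4 KO arrays read above all WT arrays, as did 2.37% of all genes. Pcolce2, an enhancer of procollagen processing, had the smallest p of the list, at 8.82 ± 0.19 in WT against 9.34 ± 0.15 in IRF4 KO (SD over 3 arrays each). P4hb, a subunit of prolyl 4-hydroxylase, read 10.38 ± 0.39 and 10.93 ± 0.37. Of 5 crosslinking enzymes, 0 passed and 4 were higher, with the lysyl oxidases Loxl1 at 9.35 ± 0.71 and 9.94 ± 0.62 and Lox at 10.39 ± 1.08 and 10.95 ± 0.69. Lox and Loxl1 were highest on IRF4 KO 1 and WT 3, as the fibrillar chains were.

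Collagen receptors and proteases followed. Among 9 receptors 0 passed, and Itgb1, the shared integrin beta chain, read 9.02 ± 0.83 in WT and 9.80 ± 0.16 in IRF4 KO, while Itga1, its partner in a collagen receptor, read 7.36 ± 0.29 and 7.09 ± 0.35. Among 7 proteases that act on collagen 0 passed over all genes. Mmp2, a gelatinase that also cleaves type IV collagen, stood out from the chains in that the genotypes did not overlap, at 8.01, 7.93 and 7.65 in WT and 8.98, 9.04 and 9.32 in IRF4 KO (difference 1.25, SE 0.20, limma adjusted p = 0.252). Its other probe set differed in the same direction, from 6.97, 6.90 and 6.82 to 8.11, 7.99 and 7.94. The SD of Mmp2 within a genotype was at most 0.19, against a median of 0.575 for the collagen chains. Mmp8, the neutrophil collagenase, was dim at 3.51 ± 0.08 and 3.68 ± 0.35. Of 14 laminin, nidogen and proteoglycan genes of the basement membrane 0 passed, 9 were higher, and the lowest unadjusted p belonged to Lamb3 (2.93 ± 0.16 and 3.16 ± 0.15, dim) and Hspg2, the perlecan gene (8.27 ± 0.35 and 8.62 ± 0.53).

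Markers of several other cell types moved with the same arrays as the collagens. Beside the counts of genes highest on WT 3 and IRF4 KO 1 given here, 17.4% of all genes read above the other 4 arrays on both. The 11 chondrocyte markers averaged 5.73 and 5.88 on WT 3 and IRF4 KO 1 and 3.33 to 3.75 on the others, and 8 of the 11 were highest on these arrays, among them Cnmd, Acan, Comp and Sox9. The others, Matn1, Ucma and Epyc, stayed at or below 3.19. All 8 macrophage markers were highest there, with list means of 8.05 and 9.28 against 4.54 to 5.51. The 4 osteoblast markers averaged 4.66 and 5.50 against 3.25 to 3.59, and 2 of them were highest on these arrays, Dmp1 and Ibsp (5.64 and 7.71 against at most 2.24). The 6 adventitial fibroblast markers averaged 8.35 and 8.80 against 6.91 to 7.11, with 4 of 6 highest there, and Lum, a collagen-binding proteoglycan gene, read 11.99 and 12.37 against 6.93 to 7.53. Smooth muscle list means overlapped, at 9.86 and 10.18 against 10.05 to 10.60, although 7 of the 8 genes averaged lower on WT 3 and IRF4 KO 1. Des, Myocd and Cnn1, 3 of the 8, read below all of the other 4 arrays there, as did 19.8% of all genes. By genotype, the chondrocyte list ranged from 3.33 to 5.73 in WT and from 3.39 to 5.88 in IRF4 KO. Lum, Ibsp and the chondrocyte genes named here were chosen after their values were seen. The part of these cell types in the collagen values was not tested.

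**Figure D5:**
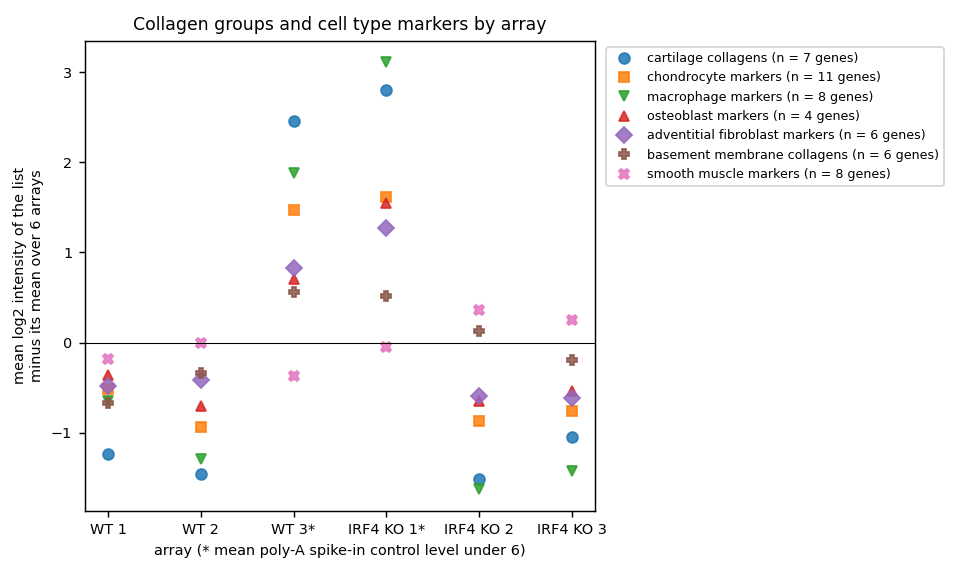
Mean log2 intensity of 2 collagen groups and 5 marker lists on each array, minus the mean of the list over the 6 arrays. Cartilage collagens and macrophage, chondrocyte, osteoblast and fibroblast markers are highest on WT 3 and IRF4 KO 1, and smooth muscle markers are not.

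Endothelial markers also had their highest list means on WT 3 and IRF4 KO 1, at 7.35 and 7.55 against 6.55 to 7.11, by less than the lists above. Of the 6 genes 5 averaged higher there, Tie1 by 1.61 and Cdh5 by 0.97, and 2 read above all of the other 4 arrays, as did 17.4% of all genes. The remaining lists differed less, with skeletal muscle markers at 3.51 and 3.76 against 3.75 to 3.89, the 2 measured Schwann cell markers 4.66 and 4.87 against 4.58 to 5.05, and the 3 adipocyte markers 3.00 and 2.60 against 2.67 to 3.13. With limma, 0 genes of the 9 marker lists passed over all genes, and Acta2, Smtn and Tagln were the 3 with an unadjusted p under 0.05 (limma adjusted p = 0.252 each, higher in IRF4 KO). The smooth muscle list as a whole was split, with 4 of its 8 genes higher and 4 lower in IRF4 KO and a median difference of 0.078.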

How the data were processed

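Affymetrix mouse arrays of injured carotid arteries (3 WT, 3 IRF4 KO) were used. The values deposited by the authors are log2 probe set intensities, made with Affymetrix Expression Console and RMA per the submitters' processing notes, with versions and settings not given in the sources used here. Of 45101 probe sets, 34958 had 1 symbol in the platform annotation and gave 18194 genes, each read from its brightest probe set. Symbols were checked through Entrez numbers against RefSeq (GRCm38.p6), which held 34754 of these probe sets and changed 0 symbols. Genotypes were compared with limma 3.58.1 in R 4.3.3 (lmFit, eBayes, two-sided, no covariate), with Benjamini-Hochberg adjustment over all genes and a threshold of 0.05. No dim gene was removed. Arrays with a mean poly-A control level under 6 (24 probe sets) were treated as a set. The fit was also run on simulated data with independent noise for each gene and array. These held no shift shared by WT 3 and IRF4 KO 1, so they do not test the fit under such a shift.

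Members, lists and the split of the arrays by control level were chosen with earlier results of these data known. Members given by array were the 3 brightest of each class, the main wall and cartilage chains, the 8 with the smallest p and the 5 with the widest range; Col9a2, Col9a3, Col19a1, Col20a1, Col22a1, Col24a1, Col27a1, Col4a3, Col4a4, Col4a6, Col6a4, Col6a5 and Col17a1 were added or summarised outside that rule, some after their values were seen. From each partner list the 2 genes with the smallest p were named. Other settings tried were the replicate number as a block, averaging a gene's probe sets, testing probe sets singly, leaving out dim genes, subtracting array medians, quantile normalization, a robust intensity trend, weights per array, the control level as a block, the 4 arrays with higher controls alone, each array left out, and a threshold of 0.1. The number of arrays limits the precision, and p-values measure the spread between pooled samples.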

Additional observations from a re-analysis of the deposited data

How the results depend on the processing

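The count of 0 collagen genes past the limma threshold held under all alternatives run, with the smallest adjusted p at 0.076 under array weights. Over all genes, 68 passed with array weights and 5 without WT 3 and IRF4 KO 1, and 0 in the other fits and at an adjusted p under 0.1. The median collagen difference of 0.16 ranged from -0.075 to 0.58 and the count of 33 higher genes from 19 to 36 when 1 array was left out. The count of 29 genes highest on WT 3 and IRF4 KO 1 was 26 with array median subtraction and 28 with the mean of all probe sets. The replicate block left 0 genes and 0 collagen genes called. Arrays of the same number correlated at -0.52, 0.37 and -0.62 in their deviations from the genotype mean. Since WT 3 and IRF4 KO 1 stood apart and carry different numbers, these values cannot tell whether the numbers mark a pairing. Under the 2 blocks, the robust trend and the removal of dim genes, a member's difference cannot change in this balanced design. Array median subtraction shifts all genes alike. Of 253 differences of 29 members under the other 9 alternatives, with those fixed in advance included, 242 kept their direction. The exceptions were Col25a1 (-0.12) and Col23a1 (0.20) with the mean of all probe sets, and Col10a1 with quantile normalization (-0.041). Array weights gave Col16a1 -0.28, Col12a1 -0.45, Col2a1 -1.24, Col10a1 -0.43, Col23a1 0.0027 and Col13a1 0.046. Without WT 3 and IRF4 KO 1, Col16a1 was at -0.015 and Col10a1 at -0.21. The cause was not tested. Leaving out 1 array turned the sign of 18 members at least once, within these ranges: Col14a1 -0.19 to 0.76, Col9a1 -2.01 to 1.61, Col16a1 -0.65 to 0.81, Col12a1 -1.06 to 1.28, Col6a1 -0.14 to 0.52, Col6a2 -0.16 to 0.43, Col5a2 -0.24 to 0.84, Col1a1 -0.79 to 1.37, Col5a1 -0.49 to 0.69, Col2a1 -2.35 to 2.85, Col11a1 -2.28 to 1.68, Col7a1 -0.012 to 0.24, Col8a1 -2.27 to 1.29, Col10a1 -0.45 to 0.30, Col8a2 -0.071 to 0.20, Col25a1 -0.026 to 0.29, Col23a1 -0.49 to 0.040 and Col13a1 -0.47 to 0.14.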
